A study of Mus musculus with 18 samples.

Results

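A set of 9 genes of serine, glycine and folate metabolism were followed through RNA sequencing of the mouse hippocampus after kainic acid (KA), a glutamate receptor agonist that provokes seizures. The members are Phgdh, Psat1 and Psph (serine synthesis), Shmt1, Gldc and Aldh1l1 (glycine and folate), and Srr, Slc7a10 and Slc6a9 (D-serine and glycine handling). They were taken by symbol and are 9 of the 55291 gene symbols measured. No measured value served as a rule for the choice, but earlier results of these data were known when it was made. All mice were male wild-type C57BL/6J, operated at 6 weeks of age, and all received AAV_DJ-GfaABC1D-EGFP-Rpl10a in the right CA3, which tags ribosomes with EGFP under the astrocyte promoter GfaABC1D. The KA group was then injected with KA (50 nL of 20 mM) in the right dentate gyrus 2 weeks after the AAV and its RNA was taken 14 days later. RNA of the AAV control group was taken 2 weeks after the AAV, so this group differs from KA in a second surgery and in time after the virus, and the PBS group received PBS after the AAV at a time not given in the sources used here. Each group had 3 samples, each a pool of 3 to 4 right hippocampi, and each homogenate gave an IP library (RNA bound to EGFP-tagged ribosomes, pulled down with anti-GFP) and an input library (total RNA). The tag marks only the cells in which the virus and this promoter were active, around the injected CA3.

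Serine is made from the glycolytic intermediate 3-phosphoglycerate by PHGDH, PSAT1 and PSPH in turn, and in the brain this pathway is known as a feature of astrocytes. Serine hydroxymethyltransferases (SHMT1 in the cytosol, SHMT2 in mitochondria) convert serine to glycine and load a carbon unit on folate, GLDC is the decarboxylase of the mitochondrial glycine cleavage system, and ALDH1L1, widely used as an astrocyte marker, oxidises 10-formyltetrahydrofolate. Serine racemase (SRR) makes D-serine, a co-agonist of NMDA receptors, while SLC7A10 (Asc-1) carries small neutral amino acids including D-serine and glycine, and SLC6A9 (GlyT1) takes up glycine.

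Libraries held 7991681 to 16032180 counts. Values are given as FPKM (counts per kilobase of gene and scaled to the library total), which allows levels of different genes to be compared per length. A gene was tested where its FPKM was above 1 in all compared libraries, and called changed at an adjusted p below 0.05 (edgeR quasi-likelihood test, Benjamini-Hochberg adjustment over all genes tested). Of the members, 7, all but Shmt1 and Slc6a9, passed that minimum in every comparison. The IP libraries carried the astrocyte label of the study, since the summed FPKM of 14 astrocyte markers was 4510 to 7407 in the IP libraries and 574 to 1376 in the input libraries. The KA and AAV control samples #1 and #2 were sequenced in run 1, their samples #3 in run 2 and all PBS samples in run 3, so wherever PBS is the baseline, run and treatment cannot be told apart. AAV control #3 stood apart from #1 and #2 for several members, and the values without it are given where they matter. Where KA is compared without it, KA #3 of run 2 has no AAV control of its run, so run and treatment are partly mixed.

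Phgdh, which encodes the first enzyme of serine synthesis, was the most abundant member in IP libraries. Its FPKM was 169, 125 and 208 in AAV control IP and 176, 212 and 118 in PBS IP, against 46.0, 45.5 and 39.0 in KA IP. Every KA IP library lay below every control IP library, and the lowest control value was more than double the highest KA value. Phgdh fell with a log2 fold change of -1.91 (SE 0.254, adjusted p = 0.00265, edgeR) against AAV control and -1.99 (SE 0.282, adjusted p = 6.19e-04, edgeR) against PBS, which is 3.76-fold and 3.97-fold lower. The gene lies on chromosome 3 (98313170 to 98339990, minus strand, GRCm38) and shares no exon base with another gene of GENCODE M21.

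The later enzymes of serine synthesis had smaller fold changes. Psat1 (chromosome 19, 15904678 to 15947337, minus strand) encodes phosphoserine aminotransferase and had 42.4, 35.6 and 44.1 FPKM in AAV control IP, 38.1, 39.3 and 31.2 in PBS IP, and 29.1, 24.1 and 26.7 in KA IP. All KA values were below all control values, but the log2 fold changes of -0.56 (SE 0.193, adjusted p = 0.0773) against AAV control and -0.45 (SE 0.206, adjusted p = 0.106) against PBS did not pass edgeR's test. With the replicate number as a block in the comparison with AAV control, the value was -0.56 at an adjusted p of 0.0126 (edgeR), so that Psat1 was called, and against PBS it was called without PBS #3 (-0.61, adjusted p = 0.035, edgeR).

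Psph (chromosome 5, 129765558 to 129787449, minus strand) encodes phosphoserine phosphatase, the last step. Its FPKM was 41.8, 34.0 and 29.5 in AAV control IP, 26.2, 25.1 and 21.7 in PBS IP and 20, 17.4 and 12.1 in KA IP. The KA values lay below those of both controls, with the PBS values in between. Psph fell by 1.04 on the log2 scale against AAV control (SE 0.194, adjusted p = 0.0101, edgeR) and by 0.59 against PBS (SE 0.202, adjusted p = 0.0418, edgeR), and the call against PBS was lost when any KA sample, PBS #1 or PBS #2 was left out (adjusted p 0.0566 to 0.118) and with no FPKM minimum (-0.40, adjusted p = 0.286). The call against AAV control was lost without KA #2 (log2 fold change -1.05, adjusted p = 0.0503, edgeR). Of the exon bases of Psph, 10.4% are shared with Cct6a on the opposite strand.

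In IP the ratio of Phgdh to each of the later enzymes also differed between KA and the controls, without a test. The FPKM of Phgdh was 4.07 ± 0.606 (SD, n = 3) times that of Psat1 in AAV control IP and 4.60 ± 0.821 (SD, n = 3) times in PBS IP, and 1.64 ± 0.221 (SD, n = 3) times in KA IP. The 3 ratios in KA IP (1.58, 1.89 and 1.46) were all below the lowest control ratio of 3.52. In input the ratio of Phgdh to Psat1 was 1.65, 1.53 and 1.49 in KA, 1.71, 1.68 and 2.74 in AAV control and 1.86, 2.53 and 2.17 in PBS. The ratio of Phgdh to Psph was 2.3, 2.62 and 3.23 in KA IP, 4.03, 3.69 and 7.06 in AAV control IP and 6.73, 8.46 and 5.41 in PBS IP. In input its KA values (2.56, 2.61 and 3.25) overlapped with AAV control (3.02, 2.59 and 4.54) and lay below PBS (3.43, 4.94 and 4.25).

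**Figure D1:**
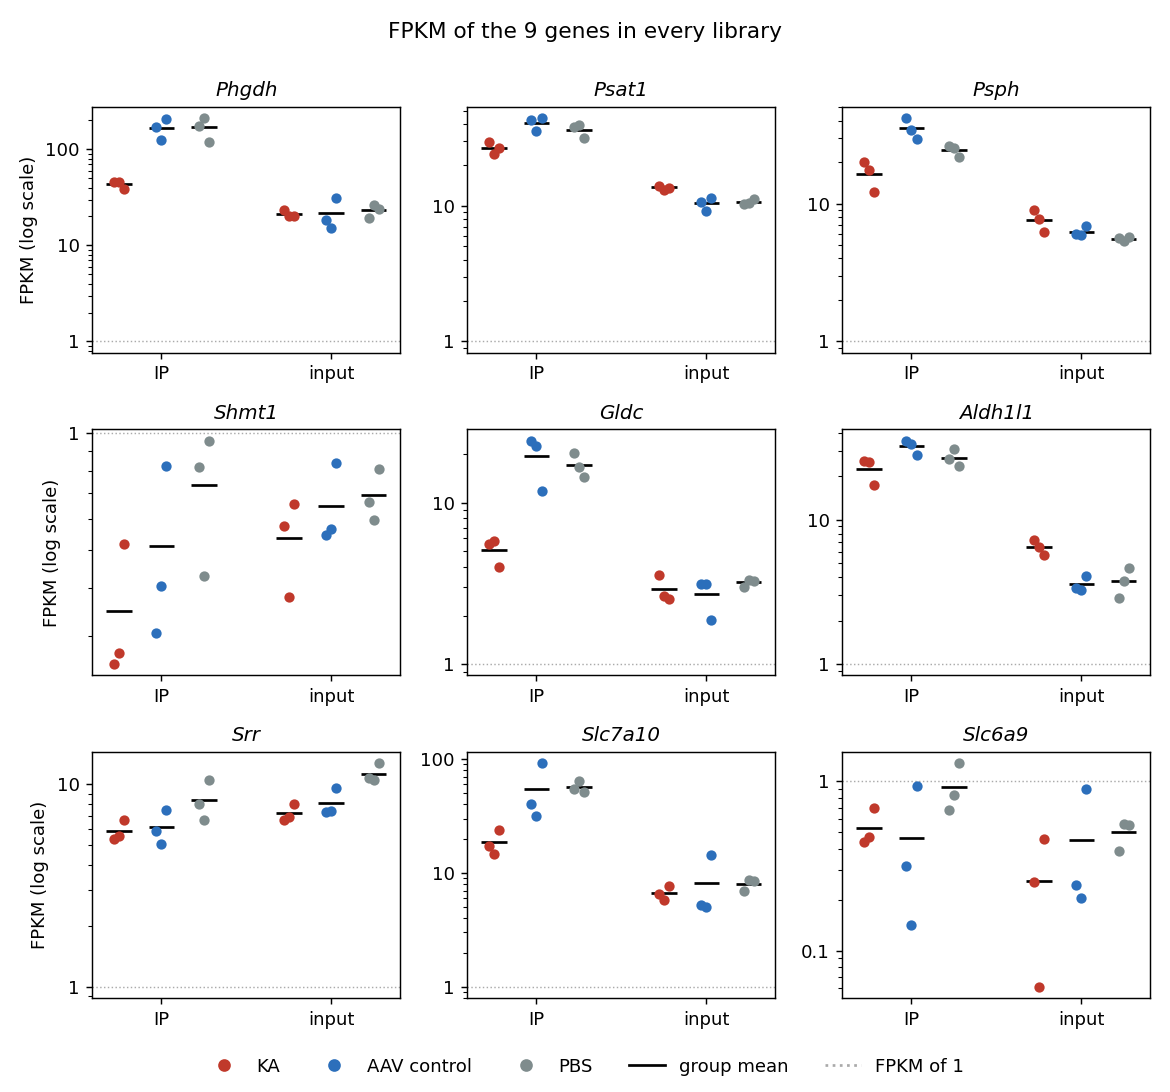
FPKM of each of the 9 genes in all 18 libraries on log axes, with points for libraries (KA red, AAV control blue, PBS grey), black bars for group means of 3 and a dotted line at an FPKM of 1. In IP the KA points of Phgdh (39.0 to 46.0), Psat1, Psph, Gldc and Slc7a10 lie below all control points, whereas in input the KA points of Aldh1l1 (5.69 to 7.28) lie above them.

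Gldc, the decarboxylase of glycine cleavage (chromosome 19, 30098447 to 30175429, minus strand, no shared exon base), fell about as far as Phgdh. Its FPKM was 24.2, 22.4 and 11.8 in AAV control IP, 20.2, 16.7 and 14.4 in PBS IP and 5.54, 5.80 and 3.98 in KA IP. The groups did not overlap, and AAV control #3 held the lowest control value. The log2 fold change was -1.86 against AAV control (SE 0.25, adjusted p = 0.0027, edgeR) and -1.76 against PBS (SE 0.206, adjusted p = 2.11e-04, edgeR).

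Gldc acts in a complex with the products of Amt, Gcsh and Dld, which were followed with it. Amt, the aminomethyltransferase, fell in KA IP by 0.78 on the log2 scale against AAV control (SE 0.21, adjusted p = 0.0354, edgeR) and by 1.07 against PBS (SE 0.204, adjusted p = 0.0028, edgeR), with a mean FPKM of 2.42 ± 0.0621 (SD, n = 3) in KA, 4.33 ± 0.555 (SD, n = 3) in AAV control and 5.15 ± 0.65 (SD, n = 3) in PBS. Gcsh, the lipoyl carrier protein, and Dld, a dehydrogenase shared with other complexes, were not called, with log2 fold changes of 0.29 and 0.05 against AAV control and 0.47 and 0.12 against PBS. The decarboxylase and the aminomethyltransferase were therefore lower in KA IP, and the changes of the other subunits did not pass the test.

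Aldh1l1 (chromosome 6, 90486427 to 90600203, plus strand) had 35.4, 33.4 and 28.2 FPKM in AAV control IP, 26.2, 31.1 and 23.5 in PBS IP and 25.4, 25.1 and 17.4 in KA IP. KA lay below AAV control in every library and overlapped with PBS. The log2 fold changes of -0.47 (SE 0.166, adjusted p = 0.0859) and -0.28 (SE 0.213, adjusted p = 0.32) did not pass edgeR's test, although the first was called with the replicate block (-0.47, adjusted p = 0.0246, edgeR) and without AAV control #3 (-0.50, adjusted p = 0.0408, edgeR). Of its exon bases, 13.4% are shared with the noncoding genes Gm15756 (opposite strand) and Gm45901 (same strand).

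Shmt1 (chromosome 11, 60788104 to 60811718, minus strand) stayed below the minimum in all 18 libraries, at 0.254 to 0.957 FPKM and 11 to 51 counts, and was not tested. Its mitochondrial counterpart Shmt2 had 4.25 ± 0.435 (SD, n = 3) FPKM in KA IP, 6.27 ± 1.46 (SD, n = 3) in AAV control IP and 5.50 ± 0.238 (SD, n = 3) in PBS IP. Its log2 fold changes of -0.53 (adjusted p = 0.166) and -0.38 (adjusted p = 0.142) were not called by edgeR. Aldh1l2, the mitochondrial counterpart of Aldh1l1, had group means of 0.0792 to 0.523 FPKM and was below the minimum.

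Slc7a10, the Asc-1 carrier (chromosome 7, 35186385 to 35201114, plus strand), was the second most abundant member in control IP libraries by group mean. Its FPKM was 40.4, 31.5 and 91.7 in AAV control IP, 54.2, 64.2 and 50.9 in PBS IP and 17.2, 14.7 and 23.7 in KA IP. All KA values were below all control values, but AAV control #3 was more than double the other AAV control libraries. Against PBS the log2 fold change was -1.60 (SE 0.257, adjusted p = 0.00122, edgeR), a 3.02-fold fall. Against AAV control it was -1.52 (SE 0.464, adjusted p = 0.0542), outside edgeR's threshold. It was -1.37 with the replicate block (adjusted p = 0.00275, edgeR) and -0.82 without AAV control #3 (adjusted p = 0.0445, edgeR), both called, so the size of this difference depended on 1 control library. It was also called with no FPKM minimum (-1.42, adjusted p = 2.22e-07) and without AAV control #2 (-1.83, adjusted p = 0.0429, edgeR). Of its exon bases, 17.9% are shared with Lrp3 on the opposite strand.

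Srr, serine racemase (chromosome 11, 74906359 to 74925948, minus strand), was not called in IP. It had 5.87, 5.05 and 7.48 FPKM in AAV control IP, 7.98, 6.64 and 10.5 in PBS IP and 5.38, 5.56 and 6.70 in KA IP. KA and AAV control overlapped fully (log2 fold change -0.01, SE 0.248, adjusted p = 0.983), and the value against PBS was -0.48 (SE 0.199, adjusted p = 0.0804, edgeR), which was called without KA #3 (-0.65, adjusted p = 0.0259, edgeR). Of its exon bases, 30% are shared with Tsr1 and Smg6 on the opposite strand. The library kit and counting are not stated to use strand in the sources used here, so reads of such partners cannot be told apart for Srr, Slc7a10, Psph and Aldh1l1.

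Slc6a9, the GlyT1 carrier (chromosome 4, 117834506 to 117875198, plus strand), reached an FPKM above 1 in 1 of the 18 libraries and was not tested. It had 3 to 69 counts per library and 0.0612 to 1.28 FPKM, and 30.2% of its exon bases are shared with genes on the opposite strand. Glycine uptake by this carrier was thus represented by few reads at this depth.

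In the comparison of KA with AAV control IP, 0 of the 7 tested members were called higher, where 10.4% of all genes were, and 3 of the 7 tested (Phgdh, Gldc and Psph) were called lower, where 9.74% of all 9729 genes tested were called lower. Of the 7 tested members, 6 had KA values below all AAV control values, where this held for 20.2% of all genes tested. Against PBS IP, 4 of 7 members (Phgdh, Gldc, Slc7a10 and Psph) were called lower, beside 18.9% of 9847 genes, and 5 of 7 lay below all PBS values, beside 23.3%. Shmt1 and Slc6a9, which were not tested, overlapped with both controls. Both comparisons use the same KA libraries. The median log2 fold change of the tested members was -1.04 and -0.59, and that of all tested genes -0.02 and -0.01.

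**Figure D2:**
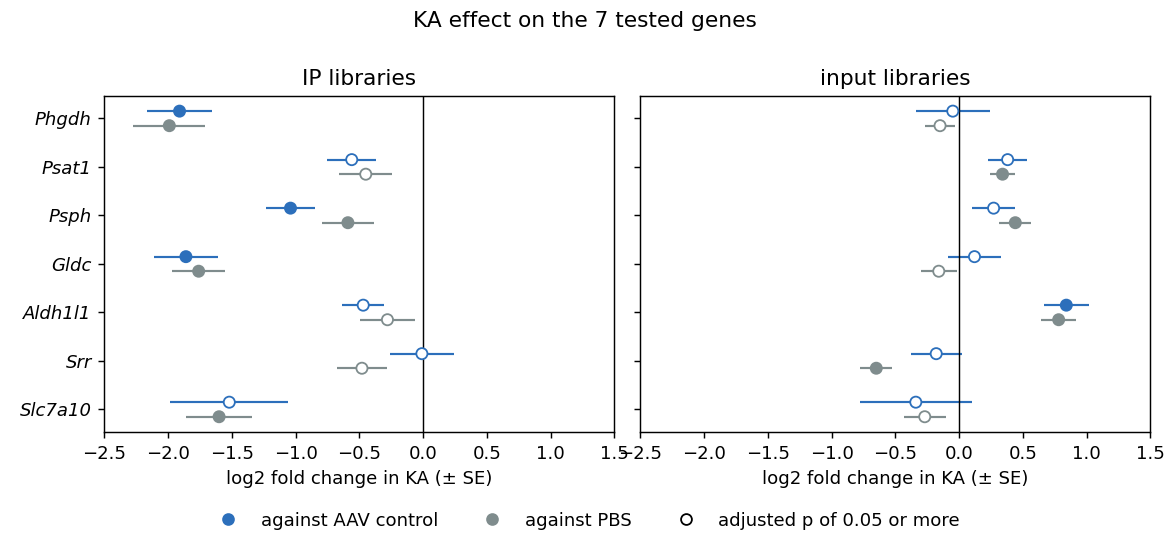
The log2 fold change of KA against AAV control (blue) and against PBS (grey) for the 7 tested genes in IP (left) and input (right), with bars for the standard error, filled points for an adjusted p below 0.05 and open points for others. Phgdh and Gldc sit between -1.76 and -1.99 in IP, whereas in input their points are between -0.16 and 0.12 and Aldh1l1 is at 0.84 and 0.78.

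Levels of other cell types moved with these IP results. Of all genes tested in IP, 10.4% were called higher and 9.74% lower against AAV control, and 18.9% lower against PBS. The share called higher against PBS is not given here. The summed FPKM of 11 neuron markers was 370 to 468 in KA IP, 186 to 217 in AAV control IP and 182 to 319 in PBS IP, and 7 of these markers rose against AAV control and 6 against PBS. The sum of 9 oligodendrocyte lineage markers was 1331 to 2601 in KA IP, 264 to 1100 in AAV control IP and 288 to 586 in PBS IP, with 2 and 7 of 7 tested markers higher. The sum of 9 microglia markers was 30 to 62, 14.8 to 25 and 18.5 to 29.2, with 3 of 5 tested markers higher against each control group and 1 (P2ry12) lower against PBS. Of the 14 astrocyte markers, 7 fell and 2 rose in KA IP against AAV control, and 6 fell and 2 rose against PBS. Among them Gfap, the intermediate filament of reactive astrocytes, rose (3684 ± 341, 677 ± 146 and 946 ± 285 FPKM, SD, n = 3, in KA, AAV control and PBS), while Slc1a2, the glial glutamate transporter, fell (480 ± 29.7, 1359 ± 415 and 1486 ± 363 FPKM, SD, n = 3). No marker of the 7 lists was at 0 in all 3 libraries of a group. The part of these cell types in the results for the members was not tested. Fewer cells of a type and less RNA per cell cannot be told apart in such bulk samples.

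In input, the total RNA of the tissue, Phgdh and Gldc were not called. Phgdh had 23.1, 20.1 and 20.2 FPKM in KA input, 18.3, 15.3 and 31.2 in AAV control input and 19.2, 26.5 and 24.2 in PBS input, and the groups overlapped. Its log2 fold change was -0.05 (SE 0.288, adjusted p = 0.949) against AAV control and -0.15 (SE 0.115, adjusted p = 0.367, edgeR) against PBS. Without AAV control #3 the first became 0.40 (adjusted p = 0.047, edgeR), a rise. That fit held KA #3 of run 2 but no AAV control of that run, and its share of all genes called is given below. With the run as a covariate the value against AAV control was 0.03 (adjusted p = 0.934, edgeR). Gldc had 3.55, 2.64 and 2.54 FPKM in KA input, 3.12, 3.13 and 1.88 in AAV control input and 3.02, 3.34 and 3.29 in PBS input, with log2 fold changes of 0.12 (adjusted p = 0.829) and -0.16 (adjusted p = 0.435, edgeR).

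Aldh1l1 went the other way and rose in KA input. It had 7.28, 6.51 and 5.69 FPKM in KA input, 3.38, 3.25 and 4.10 in AAV control input and 2.89, 3.75 and 4.64 in PBS input. The KA values were above all control values. The log2 fold change was 0.84 against AAV control (SE 0.176, adjusted p = 0.0371, edgeR) and 0.78 against PBS (SE 0.139, adjusted p = 0.00256, edgeR). With 5 libraries the first call was lost when any library but AAV control #3 was left out (0.76 to 0.88, adjusted p 0.0809 to 0.197), and without AAV control #3 it was 1.02 (adjusted p = 0.00165, edgeR).

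Psat1 and Psph were also higher in KA input than in PBS input. Psat1 had 14, 13.1 and 13.5 FPKM in KA, 10.7, 9.06 and 11.4 in AAV control and 10.3, 10.5 and 11.1 in PBS, and rose against PBS by 0.34 on the log2 scale (SE 0.0969, adjusted p = 0.0245, edgeR). Psph had 9.02, 7.71 and 6.21 FPKM in KA, 6.04, 5.88 and 6.87 in AAV control and 5.61, 5.37 and 5.70 in PBS, and rose against PBS by 0.44 (SE 0.127, adjusted p = 0.026, edgeR). Each of these calls was lost without KA #1, PBS #2 or PBS #3, that of Psph also without KA #2 and that of Psat1 with no FPKM minimum (0.31, adjusted p = 0.0873), with log2 fold changes of 0.32 to 0.46. Against AAV control the values of 0.38 (adjusted p = 0.243) and 0.27 (adjusted p = 0.462) were not called by edgeR. Without AAV control #3 they were 0.52 (adjusted p = 0.0171), which was called, and 0.41 (adjusted p = 0.0689, edgeR), in a fit that called 23.8% of all genes. Psat1 was also called with the run as a covariate (0.39, adjusted p = 0.0352, edgeR).

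Srr fell in KA input against PBS, with 6.69, 6.86 and 8 FPKM in KA and 10.8, 10.5 and 12.7 in PBS (log2 fold change -0.65, SE 0.126, adjusted p = 0.0039, edgeR). In AAV control input it had 7.33, 7.35 and 9.61 FPKM, and KA did not differ by edgeR's test (-0.18, SE 0.201, adjusted p = 0.728). Slc7a10 had 6.53, 5.82 and 7.62 FPKM in KA, 5.22, 5.06 and 14.3 in AAV control and 6.88, 8.63 and 8.52 in PBS. Its log2 fold changes of -0.34 (SE 0.441) and -0.27 (SE 0.163) were not called. Without AAV control #3 the first turned to 0.44 (adjusted p = 0.144), and without KA #3 the second was -0.43 and called (adjusted p = 0.0291, edgeR).

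In input, 1 of 7 members was called against AAV control, beside 4.49% of 10809 genes, and 4 of 7 against PBS, beside 27.7% of 10849 genes (3 higher beside 15.5%, 1 lower beside 12.2%). Of the 7 tested members, 2 lay above all AAV control values, beside 12.2% of genes, 3 lay above all PBS values, beside 18.4%, and 1 below them, beside 17.5%. Within run 1 alone (#1 and #2 of each group), 4 members were called higher than in AAV control, namely Aldh1l1 (1.06), Psph (0.49), Psat1 (0.46) and Phgdh (0.38), whereas in IP of run 1 Gldc (-1.97), Phgdh (-1.62), Slc7a10 (-1.10), Psph (-0.96), Psat1 (-0.49) and Aldh1l1 (-0.38) were called lower. In these fits of 2 against 2 libraries, 41.6% of all genes tested were called in either direction in input and 46% in IP. With the run as a covariate 6 members were called lower in IP and 2 higher in input, beside 40.2% and 16% of all genes called in either direction. Cell type markers moved in input too. The summed FPKM of 14 astrocyte markers was 1268 to 1376 in KA input against 574 to 703 in the control inputs, that of 11 neuron markers 935 to 1002 against 1230 to 1428, that of 9 microglia markers 1422 to 2293 against 116 to 255, and that of 6 ependyma and choroid plexus markers 2490 to 4482 in KA, 21.2 to 2982 in AAV control and 23.6 to 294 in PBS. The low value of 21.2 belonged to AAV control #3. The part of these shifts in the input values of the members was not tested.

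The controls were compared with each other. Of the 7 members, 0 were called between PBS and AAV control in IP or in input, beside 0% of 10667 genes in IP and 0% of 10924 genes in input (edgeR). At an unadjusted p below 0.05 the shares of all genes were 10.8% and 8.25%, DESeq2 called 16 and 30 genes, and limma voom called 0 in both. Among the members the log2 fold changes ranged from -0.47 (Psph) to 0.46 (Srr) in IP and from -0.15 (Psph) to 0.50 (Srr) in input. Without AAV control #3, 3 members were called higher in PBS input, namely Slc7a10 (0.72), Srr (0.70) and Phgdh (0.56), while 36.5% of all 11164 genes tested were then called in either direction.

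The ratio of IP to input in the same homogenate shows how far a transcript was enriched on the tagged ribosomes. In AAV control, 6 members were enriched, with FPKM ratios of 9.22, 8.22 and 6.68 for Phgdh, 10.5, 10.3 and 6.87 for Aldh1l1 and 7.74, 7.17 and 6.25 for Gldc. Slc7a10 had a mean ratio of 6.79 ± 0.832, Psph of 5.66 ± 1.32 and Psat1 of 3.92 ± 0.0401 (SD, n = 3). Phgdh, Gldc, Slc7a10 and Psph had overlapping ratios in this group, while those of Psat1 lay below all others of the 6. Srr was not enriched, with ratios of 0.80, 0.686 and 0.779.

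The same 6 members were called higher in IP than in input in AAV control (log2 fold changes 2.13 to 3.31), PBS (1.93 to 3.04) and KA (1.02 to 2.01), where 19.4%, 28.6% and 19.1% of all tested genes were called higher (edgeR). The call of Slc7a10 in AAV control was lost without AAV control #1 (adjusted p = 0.0542) and that of Gldc in KA without KA #2 (0.84, adjusted p = 0.0522, edgeR). Srr was not called in any group (-0.24, -0.32 and -0.07). On the FPKM scale the median of all tested genes was at -0.14, -0.08 and -0.21 between IP and input, against 0.01, 0.04 and 0.01 after TMM normalization, so the FPKM ratios are lower than the fitted ones by about this amount.

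In the KA group the enrichment was smaller for each of the 6. The FPKM ratio of Phgdh was 1.99, 2.26 and 1.93 in KA, and 9.17, 8.01 and 4.86 in PBS. That of Gldc was 1.56, 2.20 and 1.57 in KA, and 6.67, 5.01 and 4.36 in PBS. That of Aldh1l1 was 3.49, 3.86 and 3.05 in KA, and 9.09, 8.31 and 5.08 in PBS. For all 6 members every KA ratio was below every ratio of AAV control and PBS, which held for 18.9% of the 9001 genes with an FPKM above 1 in all 18 libraries. Mean KA ratios of the others were 2.76 ± 0.31 for Slc7a10, 2.14 ± 0.17 for Psph and 1.96 ± 0.121 for Psat1, while Srr had 0.817 ± 0.0182 (SD, n = 3). In KA, the ratios of Aldh1l1 lay above those of Phgdh, Psph, Psat1 and Gldc and overlapped with those of Slc7a10 (2.64, 2.53 and 3.11), and Phgdh, Psph, Psat1 and Gldc overlapped with each other.

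**Figure D3:**
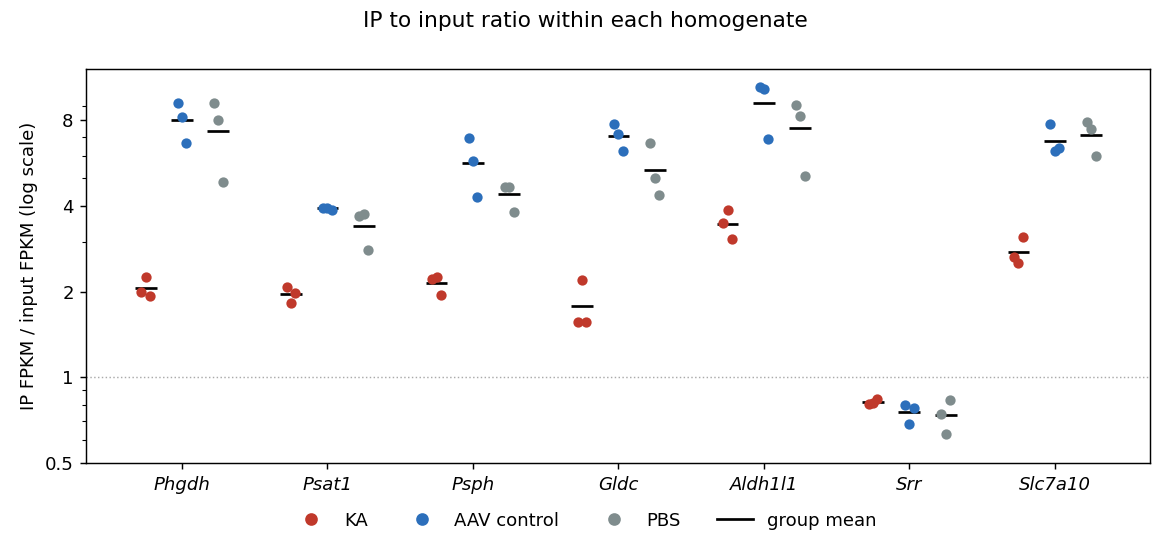
FPKM in IP divided by FPKM in input of the same homogenate (log axis) for the 7 tested genes, with 1 point per homogenate (KA red, AAV control blue, PBS grey) and black bars for means of 3. The KA points of Phgdh, Psat1, Psph, Gldc, Aldh1l1 and Slc7a10 lie between 1.56 and 3.86, below all points of the same gene in the control groups, and Srr stays below 1 in all groups.

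The difference was tested directly, as the KA effect in IP minus that in input, in a main fit that did not pair each IP with its own input. Against AAV control it was called for 5 of 7 members, beside 13.2% of 9180 genes, with log2 differences of -1.96 for Gldc (SE 0.335, adjusted p = 0.00286), -1.85 for Phgdh (SE 0.405, adjusted p = 0.0106), -1.30 for Psph, -1.30 for Aldh1l1 and -0.93 for Psat1 (edgeR). Against PBS it was called for 6 of 7, beside 25.5% of 9305 genes, from -1.86 for Phgdh (SE 0.324, adjusted p = 0.00152) to -0.80 for Psat1 (SE 0.233, adjusted p = 0.0223, edgeR), the call for Psat1 being lost with no FPKM minimum (-0.55, adjusted p = 0.25). Slc7a10 was at -1.34 against PBS (adjusted p = 0.00924) and at -1.18 against AAV control (SE 0.714, adjusted p = 0.332, edgeR). The latter was called with the replicate block, which sets each IP beside its own input (-1.21, adjusted p = 1.77e-04, edgeR). Srr was at 0.18 and 0.17 and was not called. The medians of the tested members were -1.30 and -1.08, and those of all tested genes -0.02 and -0.07.

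The astrocyte markers did the same, as 9 of 14 were called with a lower enrichment in KA against each control group (medians -1.36 and -1.30), while 9 and 7 of 11 neuron markers were called with a higher one. Of all genes tested, 13.2% and 25.5% were called in either direction. The part of this marker shift in the ratios of the members was not tested.

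Members were next set against Aldh1l1 in the same library, a ratio in which the library total cancels out. This denominator was chosen after the values had been seen. In IP the FPKM of Phgdh was 1.81, 1.81 and 2.25 times that of Aldh1l1 in KA, 4.77, 3.75 and 7.39 times in AAV control and 6.72, 6.82 and 4.99 times in PBS. In input it was 3.18, 3.09 and 3.54 times in KA, 5.41, 4.70 and 7.60 times in AAV control and 6.66, 7.08 and 5.22 times in PBS. Relative to Aldh1l1, Phgdh was lower in every KA library than in every control library, by mean log2 differences of -1.39 and -1.65 in IP and -0.82 and -0.94 in input against AAV control and PBS.

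Gldc showed a like pattern, at 0.218, 0.231 and 0.23 times Aldh1l1 in KA IP, 0.684, 0.671 and 0.417 times in AAV control IP and 0.768, 0.538 and 0.611 times in PBS IP. In input its mean ratio was 0.447 ± 0.0411 in KA, 0.782 ± 0.281 in AAV control and 0.883 ± 0.169 in PBS (SD, n = 3), with an overlap with AAV control. Psat1 did not separate from Aldh1l1 in IP (1.21 ± 0.295 in KA, 1.28 ± 0.259 in AAV control, 1.35 ± 0.0977 in PBS, SD, n = 3), and in input it was lower in all KA libraries (1.93 to 2.38) than in all control libraries (2.40 to 3.57). Slc7a10 was lower than PBS in both kinds of library (differences of -1.36 in IP and -1.08 in input) and than AAV control in input (-0.99), and overlapped with AAV control in IP. Psph was lower than both controls in IP (-0.58 and -0.33) and than AAV control in input (-0.59), and overlapped with PBS in input.

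In input, where Aldh1l1 itself rose, a lower ratio to Aldh1l1 was common to the members and not particular to Phgdh and Gldc. Srr, which was not enriched in IP, differed by -1.02 and -1.46 against AAV control and PBS, and Shmt1, with few counts, by -1.15 and -1.20, each without overlap and further than Phgdh. Slc6a9, also with few counts, was at -1.74 and -2.16 and overlapped with AAV control. In IP, Srr, Shmt1 and Slc6a9 overlapped with both controls.

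These ratios were compared with two-sided exact permutation tests of 3 against 3 samples, 32 in all, which cannot give a p below 0.1. Each group pair without overlap gave this smallest p of 0.1, so that no difference in these ratios can pass a threshold of 0.05 by this test, before or after adjustment. With the geometric mean of the 14 astrocyte markers as the denominator, the differences for Phgdh were -1.44 and -1.58 in IP and -0.90 and -1.06 in input, again without overlap. In input, where the marker sum itself was higher in KA, this was not particular to Phgdh. Srr was at -1.10 and -1.58, Slc7a10 at -1.07 and -1.20 and Shmt1, with few counts, at -1.23 and -1.32. Each of these lay further than Phgdh and without overlap, while Aldh1l1 overlapped with both controls. For Psph the separation depended on the denominator. With the marker mean it was at -0.63 in IP against AAV control without overlap, and at -0.25 against PBS with overlap. In input Psph was at -0.66 and -0.49, both without overlap.

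**Figure D4:**
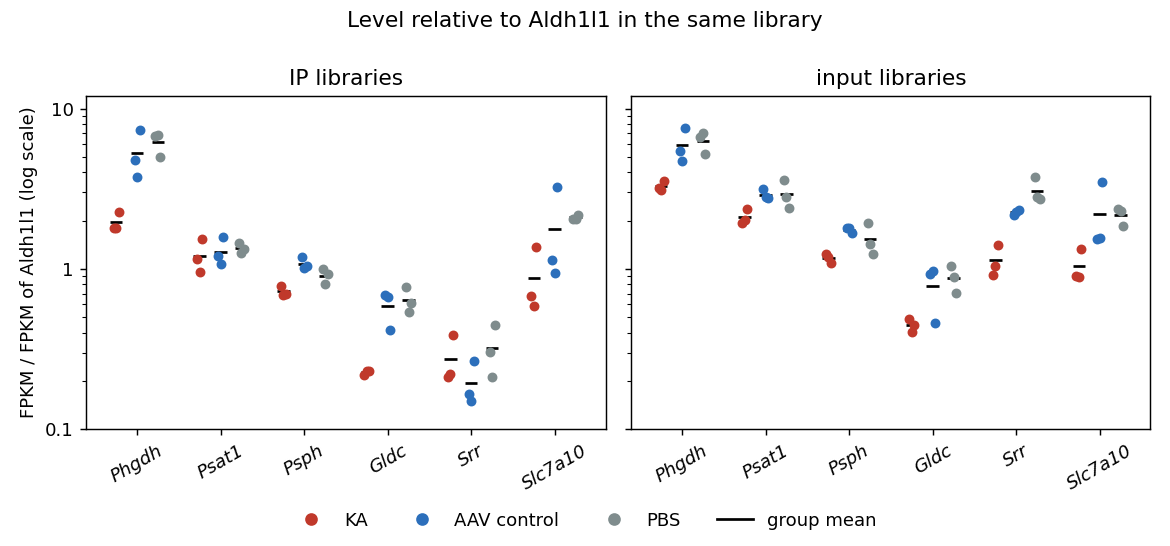
FPKM of 6 members divided by the FPKM of Aldh1l1 in the same library (log axis) in IP (left) and input (right), with 1 point per library (KA red, AAV control blue, PBS grey) and black bars for means of 3. The KA points of Phgdh, at 1.81 to 2.25 in IP and 3.09 to 3.54 in input, lie below all control points, while those of Psat1 in IP overlap with the controls.

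The sequence upstream of a start site is shown for Phgdh and Gldc, which fell furthest in KA IP, and for Aldh1l1, which did not fall by the test against either control. The Aldh1l1 window lies inside the gene span given above, at an internal start site, while those of Phgdh and Gldc lie just outside theirs. The sequences are those of RefSeq on GRCm38.p6, 5′ to 3′ on the strand of the gene, and end at the start site or, where GENCODE places an exon further upstream, before that exon. Capitals mark matches, on either strand, to the letters CCAAT known as a CCAAT box, to the letters GGGCGG known as a GC box, or to the letters TATAAA known as a TATA box. These motifs were chosen after the values had been seen.
Phgdh, chr3:98339991-98340219, minus strand: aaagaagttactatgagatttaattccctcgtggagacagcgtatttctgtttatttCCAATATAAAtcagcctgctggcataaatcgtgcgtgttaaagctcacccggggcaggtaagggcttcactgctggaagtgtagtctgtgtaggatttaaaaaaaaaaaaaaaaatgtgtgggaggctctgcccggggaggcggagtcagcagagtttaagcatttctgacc
Gldc, chr19:30175442-30175691, minus strand: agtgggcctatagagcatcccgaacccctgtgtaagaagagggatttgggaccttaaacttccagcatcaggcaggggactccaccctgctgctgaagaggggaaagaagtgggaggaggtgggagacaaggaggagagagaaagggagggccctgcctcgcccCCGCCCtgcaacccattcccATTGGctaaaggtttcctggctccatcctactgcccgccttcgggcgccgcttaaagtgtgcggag
Aldh1l1, chr6:90550543-90550788, plus strand: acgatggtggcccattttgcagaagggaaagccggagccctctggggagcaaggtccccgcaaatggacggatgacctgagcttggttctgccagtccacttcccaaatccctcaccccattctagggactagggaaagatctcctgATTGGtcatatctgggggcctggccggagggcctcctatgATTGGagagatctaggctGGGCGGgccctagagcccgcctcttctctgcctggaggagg
In Phgdh a CCAAT box overlaps a TATA box and another CCAAT box, 23 bases before the start, reaches into the part not shown, in Gldc a GC box precedes a CCAAT box, and Aldh1l1 holds a pair of CCAAT boxes and a GC box, each motif read on the strand where it matched. Of all 32851 promoters of that set (250 bases before to 50 after the start), 37.4% hold CCAAT, 35.7% GGGCGG and 13.6% TATAAA. All 9 members have at least 1 promoter in the set.

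The core of the amino acid response element bound by ATF4 and C/EBP proteins, TGATGNAA, and the cyclic AMP response element, TGACGTCA, were also searched for on both strands. No promoter of a member held either, and 3.97% and 1.79% of all promoters did. Neither TTCNNNGAA (a STAT motif, 8.30% of promoters) nor the palindromic NFI motif (0.0365%) was found in a member. Asns, asparagine synthetase, was the only gene outside the members whose own matches were listed. It has the amino acid response core 23 bases upstream of its start, shown in capitals. Whether this motif goes with a rise or a fall in KA was not tested.
Asns, chr6:7693214-7693243, minus strand: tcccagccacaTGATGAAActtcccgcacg
A match here describes the letters of a window and not a bound site.

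Genes around the members were read from 7 lists that cover 105 genes. In KA IP, 10.4% of all genes tested were called higher and 9.74% lower against AAV control, and 18.9% lower against PBS. The share called higher against PBS is not given here, so list counts in that direction have no such share beside them. In the methionine cycle and transsulfuration list, where serine condenses with homocysteine, 4 of 8 tested genes fell and 1 rose in KA IP against AAV control, and 3 fell and 1 rose against PBS. Cbs, cystathionine beta-synthase, which uses serine for transsulfuration, fell by 1.71 on the log2 scale (SE 0.2, adjusted p = 0.00163) and by 1.69 (SE 0.217, adjusted p = 3.54e-04, edgeR) against AAV control and PBS, from 12.7 ± 1.83 and 12.1 ± 2.01 to 3.79 ± 0.473 FPKM (SD, n = 3). Ahcyl1, related to adenosylhomocysteinase and known as a regulator of inositol trisphosphate receptors, fell by 1.84 and 1.81. Mat2b, the regulatory subunit of methionine adenosyltransferase, rose by 2.05 and 2.16. Ahcyl2 fell by 0.68 and 1.06, and Cth, the next enzyme of transsulfuration, fell by 0.88 against AAV control.

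Folate and one-carbon enzymes and carriers had 0 genes higher and 2 of 15 tested lower (Amt and Mthfd2l) in KA IP against AAV control, beside 9.74% of all genes lower. Against PBS, 0 were higher and 4 of 13 lower (Amt, Gart, Mthfd2l and Slc46a1), beside 18.9%. The list medians were -0.47 and -0.30. In input 1 gene of 12 (Ggh) and 2 of 13 (Ggh and Shmt2) rose and 0 fell. Of all genes in input, 4.49% were called in either direction against AAV control and 15.5% higher against PBS. Ggh encodes gamma-glutamyl hydrolase, which trims folate polyglutamates.

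Receptors for glycine and D-serine had 2 of 6 tested genes lower against AAV control, namely the NMDA receptor subunits Grin3a (log2 fold change -1.65, SE 0.213, adjusted p = 0.00238) and Grin2c (-1.41, SE 0.331, adjusted p = 0.0223, edgeR), and 4 of 6 lower against PBS (Grin1, Grin2a, Grin2c and Grin3a). Grin2c went from 19.3 ± 8.78 FPKM in AAV control IP and 11.3 ± 1.49 in PBS IP to 6.92 ± 1.69 in KA IP (SD, n = 3). Other serine and glycine carriers had 1 higher (Slc7a8, log2 fold change 1.21, SE 0.252, adjusted p = 0.0148, edgeR) and 1 lower (Sfxn1, a mitochondrial serine carrier, -0.65) of 10 against AAV control, and 0 called against PBS, where Slc7a8 had 4.94 ± 1.81 FPKM in KA and 3.58 ± 1.41 in PBS (SD, n = 3).

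Genes that use serine or glycine for synthesis had 1 of 7 higher against AAV control and 1 higher and 1 lower against PBS. Gatm, which makes guanidinoacetate from glycine for creatine, rose by 1.04 (SE 0.303, adjusted p = 0.0467) and 1.28 (SE 0.261, adjusted p = 0.0039, edgeR). In the breakdown list 1 of 3 tested genes, the D-aspartate oxidase Ddo, fell against each control group (-0.76 and -0.55).

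The list of ATF4 and the amino acid response, which in many cells includes serine synthesis enzymes among its targets, had 4 of 12 tested genes higher and 1 lower against AAV control, beside 10.4% and 9.74% of all genes. Against PBS, 2 of 13 were lower, beside 18.9%, and 6 were higher, with no share of all genes given for that direction. Nupr1, a stress-induced nuclear protein, rose by 3.14 and 3.94, Cebpb by 1.96 and 2.77 and Asns by 1.61 (SE 0.295, adjusted p = 0.00923) and 1.40 (SE 0.205, adjusted p = 7.37e-04, edgeR). Slc7a11, the cystine carrier, fell by 1.87 and 1.51. Atf4 itself was not called against AAV control (0.16, adjusted p = 0.637, edgeR). Nor were Atf5 (0.003), Cebpg (0.22), Ddit3 (0.30), Sesn2 (0.34), Eif2ak4 (-0.40) and Ppp1r15a (-0.03) in that comparison. Asns was at 20.9 ± 2.83 FPKM in KA IP, 7.02 ± 2.15 in AAV control IP and 8.08 ± 1.96 in PBS IP, and at 27.9 ± 1.22 to 37.0 ± 4.98 in the input groups (SD, n = 3), so that it was below its input level in each IP group. The higher Asns and the lower Phgdh, Psph and Slc7a11 were found in the same KA IP libraries. The medians of this list were 0.26 and 0.47.

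**Figure D5:**
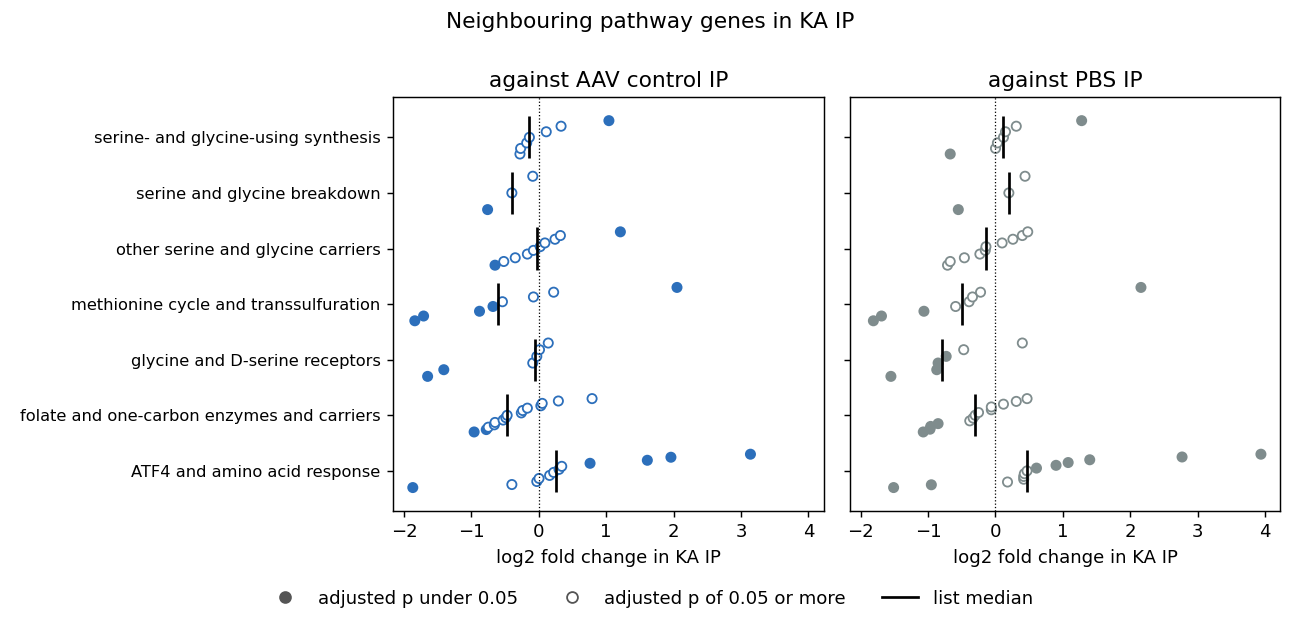
The log2 fold change in KA IP against AAV control (left) and PBS (right) of each tested gene in 7 lists of neighbouring pathways, with filled points for an adjusted p below 0.05, open points for others and black bars for list medians. The methionine cycle and transsulfuration list runs from -1.84 (Ahcyl1) to 2.05 (Mat2b) against AAV control, and the ATF4 list reaches 3.14 (Nupr1).

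Across all 18 libraries, which share IP and input as the main source of variation, the profiles of 6 members ran together on log2(FPKM + 1). Pearson's r was 0.971 between Phgdh and Slc7a10, 0.979 between Psat1 and Aldh1l1, and 0.852 or more for every pair of Phgdh, Psat1, Psph, Gldc, Aldh1l1 and Slc7a10. Srr ran against them, from -0.213 with Slc7a10 to -0.589 with Aldh1l1. Among 9001 genes with FPKM above 1 in all libraries, the genes most like Phgdh were Cbs (0.995) and Plpp3 (0.994), those most like Gldc were Glud1 (0.988) and Epas1 (0.988), and those most like Slc7a10 were Hsd11b1 (0.989) and Eci1 (0.986). Psat1 was nearest to Cyb5a (0.995) and F3 (0.994), Psph to Oat (0.995) and Acadl (0.990), Aldh1l1 to Pttg1ip (0.995) and Fkbp9 (0.995), and Srr to Bsn (0.955) and Gm14295 (0.952). Bsn encodes the presynaptic protein bassoon. These values describe 18 libraries from 9 homogenates and carry no test.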

How the data were processed

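RNA was sequenced from IP and input libraries of 3 homogenates in each of the KA, AAV control and PBS groups (18 libraries). The submitters' processing notes name the build mm10 and the tools STAR, featureCounts and edgeR; versions, annotation and strand setting are not given in the sources used here. The deposited counts are whole read counts per gene symbol, and for the 7 tested members each deposited FPKM followed from count, library total and 1 gene length (coefficient of variation 0.0121%).

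Groups came from sample titles. Counts were tested with edgeR 4.0.16 (TMM normalization, quasi-likelihood test, Benjamini-Hochberg adjustment over all genes tested) in R 4.3.3, on the compared groups only, for genes with FPKM above 1 in all compared libraries. The tests were checked on simulated counts. Alternatives were RLE size factors, no FPKM minimum, DESeq2 1.42.0, limma 3.58.1 voom, each sample left out, the replicate number as a block, sequencing run as a covariate and, chosen after seeing the data, run 1 alone. Samples are pools of mice, so p-values measure the spread between pools. No pair of libraries of a group agreed within counting noise (variance at least 4.48 times that of counting). In KA and AAV control this value was 4.48 to 9.59 between #1 and #2, which share a run. It was 39.6 to 109 between either of them and #3. The fits of run 1 alone therefore measure only the smaller spread within a run, as do the AAV control libraries in fits without AAV control #3.

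IP and input of the same number share a homogenate, and the residuals of such pairs correlated at 0.155 to 0.752. Same-numbered KA and AAV control libraries correlated at 0.348 to 0.551, over 0.1 in every pair. They are pools of different mice, and those of the same number were sequenced in the same run. A link by number thus cannot be told apart from a shared run, and KA input #2 was most like AAV control input #1. The main tests did not pair these numbers. The number served as a block only in an alternative fit, and the blocked value is given where it changed a call.

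The members and lists were chosen with earlier results of these data known. Besides the 9 members, genes are named if changed by at least 1 on the log2 scale in KA IP (at most 6 per list and comparison), if a partner of a member (Shmt2, Aldh1l2, Amt, Gcsh, Dld), if among the 4 most abundant of a marker list, or if among the 2 genes most like a member; further list genes behind a small count were named after their values were seen. Gene positions are from GENCODE M21 and start-site sequences from RefSeq (GRCm38). No protein sequence was used here.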

Additional observations from a re-analysis of the deposited data

Results flagged for a closer look

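The difference between KA and baseline was not the same in IP and in input for 5 members with AAV control as the baseline and for 6 with PBS, by the test of the difference itself (edgeR, adjusted p below 0.05). Against AAV control the log2 difference was -1.85 for Phgdh (adjusted p = 0.0106), -0.93 for Psat1 (0.0222), -1.30 for Psph (0.00484), -1.96 for Gldc (0.00286) and -1.30 for Aldh1l1 (0.00251). Against PBS it was -1.86 for Phgdh (adjusted p = 0.00152), -0.80 for Psat1 (0.0223), -1.04 for Psph (0.00933), -1.61 for Gldc (9.96e-04), -1.08 for Aldh1l1 (0.0101) and -1.34 for Slc7a10 (0.00924). The baselines share the KA libraries. For Phgdh and Gldc the IP value was lower in KA and the input value was not called, whereas for Aldh1l1 the input value was higher in KA and the IP value was not called in the main edgeR test (against AAV control it was called lower in several alternatives, at -0.38 to -0.50). Astrocyte markers as a list had medians of -1.36 and -1.30 in the same tests, and their part in these differences was not tested.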

How the results depend on the processing

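Against AAV control in IP, the 3 called members became 6 with DESeq2, with the replicate block, with sequencing run as a covariate and in run 1 libraries only, as Psat1, Aldh1l1 and Slc7a10 were added, and 2 to 5 when 1 sample was left out. The share of all genes called, 20.1% in the main test, was 26.3%, 34.5%, 40.2% and 46% under these 4 settings and 8.59% to 33.8% with 1 sample left out. In input, the 1 called member became 2 with sequencing run as a covariate, 4 in run 1 libraries only, and 0 to 3 when 1 sample was left out (3 without AAV control #3), while the share of all genes called went from 4.49% to 16%, 41.6% and 1.23% to 23.8%. Leaving out 1 sample gave 2 to 5 called members in place of 4 for KA against PBS in input, 0 to 3 in place of 0 for PBS against AAV control in input (3 without AAV control #3), and 3 to 6 in place of 5 for the KA effect in IP minus input against AAV control (3 without any 1 KA sample or AAV control #1). With 1 sample left out, 3 to 5 members in place of 4 were called for KA against PBS in IP and 4 to 6 in place of 6 for IP minus input against PBS. The main fits called 27.7% of all genes for KA against PBS in input and 0% for PBS against AAV control in input. For IP minus input they called 13.2% and 25.5%. Most shares of all genes for these comparisons with 1 sample left out are not given here, so those counts are not results about the members. Where 1 sample was left out fewer samples were fitted, and for the other settings the cause was not tested. The replicate block changed the call of Psat1, Aldh1l1 and Slc7a10 in IP and of Slc7a10 in the IP minus input test, all against AAV control, and of no other member. Phgdh and Gldc kept their direction in IP against each control group under every alternative.

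Directions turned only for values that were not called by the main test. For KA against AAV control in IP, Srr was at 0.08 with no FPKM minimum, 0.01 with the replicate block, 0.003 with run as a covariate, 0.07 in run 1 libraries only and -0.19 to 0.23 when 1 sample was left out. In input, Phgdh was at 0.03 with limma voom, the block and the run covariate, 0.38 in run 1 libraries only and -0.27 to 0.40 with 1 sample left out, and the same 2 settings gave -0.01 and -0.05 to 0.22 for Gldc and 0.27 and -0.62 to 0.44 for Slc7a10, while Srr was at -0.32 to 0.04 with 1 sample left out. For PBS against AAV control in IP, no FPKM minimum gave -0.005 for Phgdh and -0.01 for Slc7a10, and leaving out 1 sample gave -0.26 to 0.33 for Phgdh, -0.31 to 0.04 for Psat1, -0.34 to 0.06 for Gldc and -0.23 to 0.76 for Slc7a10. In input of the same groups it gave -0.09 to 0.56 for Phgdh, -0.04 to 0.19 for Psat1, -0.04 to 0.25 for Aldh1l1 and -0.32 to 0.72 for Slc7a10, which was at 0.13 with limma voom and 0.14 with the block. Srr between IP and input in KA was at 0.02 with no FPKM minimum. Mean ratios of IP to input from TMM-normalized CPM were higher in each group for Phgdh and Aldh1l1. For Phgdh they were 2.56 in KA, 9.1 in AAV control and 7.73 in PBS, in place of 2.06, 8.04 and 7.35. For Aldh1l1 they were 4.31, 10.4 and 7.89, in place of 3.47, 9.2 and 7.49. Shmt1 and Slc6a9 had as few as 11 and 3 counts, and with no FPKM minimum Slc6a9 was called higher in IP than in input in PBS (0.90, adjusted p = 0.0328) and KA (1.32, adjusted p = 0.0111, edgeR).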
